A study of Mus musculus with 6 samples.

Results

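The BMP, TGF-beta and Notch pathways pass signals between neighbouring cells, and 59 genes that bear their names were measured here out of 15450 named genes. The genes were taken by symbol, with a fixed pattern that was chosen with earlier results of these data known. They are ligands, receptors, antagonists, Smads, fringes and nuclear partners of the 3 pathways, on 87 of the 26691 transcript rows of the deposited table. They comprised 21 BMP genes, 18 TGF-beta and activin genes and 17 Notch genes, plus 3 genes (Bmp1, Bmp2k and Tgfbrap1) that are named for a family but act in another way. Another 22 genes of the same roles, among them Bmp2, Bmp4, Nog, Tgfbr2, Acvr2b, Dll4 and Rbpj, were not analysed here.

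The cells came from mouse retinas whose eyes had received an adeno-associated virus (AAV), a gene-delivery vector, carrying either Sox11, a transcription factor of developing neurons (AAV-Sox11), or the control cargo PLAP (AAV-Control). Mice were 3 to 4 weeks old at the start, the virus acted for 2 weeks, and all animals of both groups had their optic nerve crushed 3 days before sacrifice. Live cells positive for Thy1, a surface protein of retinal ganglion cells, were sorted, and polyadenylated RNA was sequenced in 3 libraries per group (A, B and C), each from 3 retinas of 3 different animals. Control and Sox11 libraries of the same letter were prepared on the same day, per the series description. The labels give neither a strain nor the promoter that drives the viral gene, and every animal had a crushed nerve, so the comparison holds no uninjured retina.

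BMPs bind type I and type II receptor kinases that phosphorylate Smad1, Smad5 and Smad9, whereas TGF-beta and activin ligands act through Smad2 and Smad3, and both groups of Smads enter the nucleus with Smad4. Antagonists such as chordin hold BMPs away from their receptors, and Smad6, Smad7 and the Smurf ubiquitin ligases damp the response. Notch receptors are cleaved when a Delta or Jagged ligand on the next cell binds them, and the freed fragment works in the nucleus with RBPJ and a Mastermind-like (MAML) coactivator. In the retina, BMP signals pattern the dorsal side, and Notch signals hold back neuron formation and favour Muller glia.

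Values are the authors' normalized values, summed over the transcript rows of a gene. Every one of the 59 genes passed the minimum mean value of 1. Differences are log2 fold changes of AAV-Sox11 over AAV-Control from limma on log2(value + 1), with the standard error (SE) and a Benjamini-Hochberg adjusted p over all genes, and a gene passed the test at an adjusted p under 0.05. The addition of 1 understates changes of low genes. Library totals lay between 10747985 and 11546892, but they are sums of values that appear to have been adjusted before deposit, so they stand for depth only roughly. Across the 6 libraries 1 direction held no spread at all beyond rounding, so part of the spread between replicates is missing and the p-values may be too small. Viral delivery was checked first. Sox11 had values of 131, 111 and 100.3 in controls A, B and C and 179, 234 and 284 with AAV-Sox11. Every AAV-Sox11 library lay above every control, the difference was 1.003 ± 0.197 (SE) with an adjusted p of 0.0504 (0.59 with an index of sex-linked genes as a covariate), and viral and endogenous transcripts were not told apart.

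The sorted libraries held transcripts of several retinal cell types. All 10 ganglion cell markers were measured, with summed values of 7031 to 10550 in the controls and 8611 to 11530 with AAV-Sox11, but all 6 rod markers were measured too, at 36120 to 57380 and 22450 to 41310. Marker levels also moved with the groups. Of the ganglion cell markers 7 of 10 had positive differences, with a median log2 fold change of 0.48. Stmn2 passed (1.04, adjusted p = 0.0447). The 6 amacrine markers had summed values of 9385 to 13180 in the controls and 10710 to 13110 with AAV-Sox11. Of these, 4 had positive differences, with a median of 0.17, and Slc6a9 passed downward (-0.93, adjusted p = 0.0481). All 6 bipolar, all 5 cone and all 4 measured microglia markers had negative differences that did not pass, with medians of -0.76, -0.84 and -0.55, and 5 of 6 rod markers were negative, with a median of -0.59. AAV-Control A stood apart from the other controls: its mean deviation on the log2 scale was 1.03 over 7 of the 8 Muller glia and astrocyte markers, 1.40 over 3 of the 9 endothelium and pericyte markers (Kdr, Rgs5 and Cspg4) and 1.58 over 5 cone markers, against -0.57, -0.47 and -0.38 in control B. Their part in the results below was not tested. In such pooled libraries, fewer cells of a type and less RNA per cell cannot be told apart.

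Of the 59 genes, 2 rose and 2 fell with AAV-Sox11. Bmp5 and Maml2 were more than 2-fold higher, and Bmp6 and Smad9 were lower by 1.72-fold and 1.43-fold. These 4 are 6.78% of the 59, beside 2.32% of all genes tested (0.796% higher and 1.52% lower). At an unadjusted p under 0.05 there were 6 higher and 12 lower genes, 30.5% against 24.3% of all genes. In 21 genes (35.6%, against 30.7% of all genes) the groups did not overlap, 7 of them higher and 14 lower, beside 16.2% and 14.4% of all genes. With the same-day letter as a block, 2 rose and 4 fell, beside 4.77% of all genes. The median log2 fold change was -0.10, with 36 negative and 23 positive values, while over all genes it was 0.03 with 7135 negative and 8315 positive values. The 4 calls were lost, along with those of all genes, when AAV-Sox11 A, B or C was left out, when the direction without spread was a covariate, or when an index of sex-linked genes was one. At an unadjusted p under 0.05, 15, 11 and 15 of the 59 genes passed without AAV-Sox11 A, B and C. With the direction 13 passed, and with the sex index 12. Over all 15450 genes, the counts in the same order were 3120, 1942, 2953, 2582 and 2702. The sex index is log2 of Xist minus the mean of 4 Y-linked genes. It was 6.82, 6.79 and 5.26 in the controls and 6.86, 8.11 and 8.45 with AAV-Sox11.

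**Figure D1:**
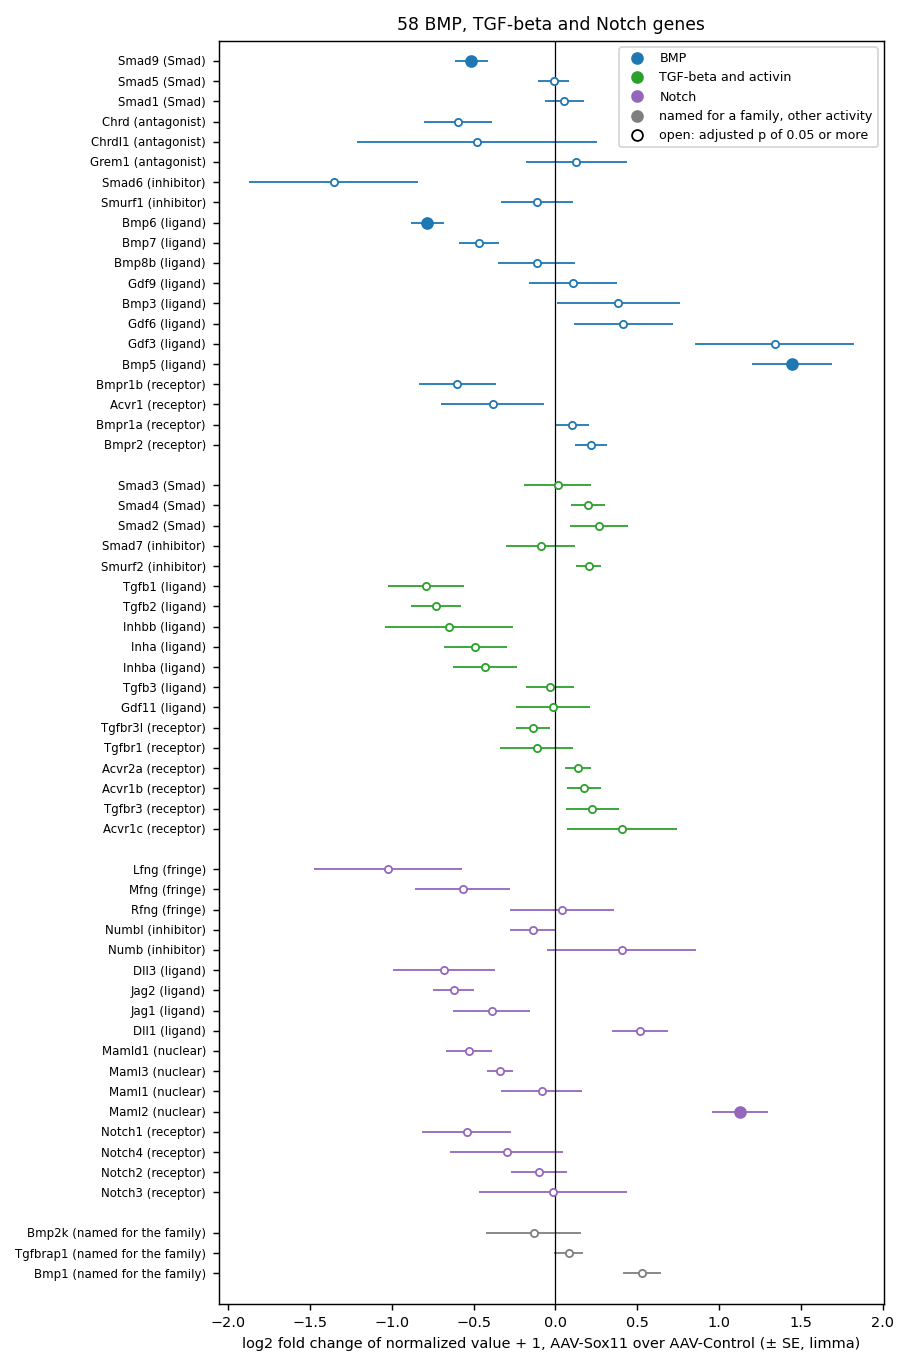
Log2 fold change of 58 of the 59 genes (x axis, AAV-Sox11 over AAV-Control, bars ± SE from limma), grouped by pathway and role. Filled points passed at an adjusted p under 0.05: Bmp5 and Maml2 to the right, Bmp6 and Smad9 to the left. All 7 genes counted as TGF-beta and activin ligands lie left of 0.

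The promoters of 3 of the 4 called genes are shown, since these are the stretches upstream of the starts whose transcripts changed. Each is the 250 bases before a RefSeq start in GRCm38.p6, read 5′ to 3′ on the plus strand. Capitals mark matches on either strand to 3 searched cores, ACAAAG for SOX proteins, TGGGAA for RBPJ and GGCGCC for BMP-activated Smads, none of which overlap another match here. The Bmp5 promoter lies at chr9:75775115-75775364, the Maml2 promoter at chr9:13297708-13297957 and the Smad9 promoter at chr3:54755332-54755581.
Bmp5: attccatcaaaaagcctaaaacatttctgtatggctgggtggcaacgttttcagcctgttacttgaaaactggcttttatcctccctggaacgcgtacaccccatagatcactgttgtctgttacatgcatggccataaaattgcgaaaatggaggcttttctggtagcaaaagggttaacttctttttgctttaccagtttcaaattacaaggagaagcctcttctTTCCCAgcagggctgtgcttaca
Maml2: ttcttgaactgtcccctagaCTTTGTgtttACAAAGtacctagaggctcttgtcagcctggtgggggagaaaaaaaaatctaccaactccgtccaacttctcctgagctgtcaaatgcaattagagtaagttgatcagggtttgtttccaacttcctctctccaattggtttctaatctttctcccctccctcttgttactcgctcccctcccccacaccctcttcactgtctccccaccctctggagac
Smad9: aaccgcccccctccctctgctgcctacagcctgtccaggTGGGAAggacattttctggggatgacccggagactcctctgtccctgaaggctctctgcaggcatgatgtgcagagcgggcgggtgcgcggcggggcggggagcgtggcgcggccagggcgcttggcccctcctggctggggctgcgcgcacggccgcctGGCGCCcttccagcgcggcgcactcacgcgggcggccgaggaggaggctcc
The RefSeq window of Bmp6 lies away from the start of its transcript row and is not shown. Maml2 has 2 RefSeq windows, of which only that nearest the start of its abundant transcript row is shown. The Maml2 stretch shown held 2 SOX cores in opposite orientation, the Bmp5 stretch 1 RBPJ core, and the Smad9 stretch 1 RBPJ core and 1 Smad core. The bases G and C made up 42.8% of the Bmp5 promoter, 48.0% of the Maml2 promoter and 73.2% of the Smad9 promoter. RefSeq windows matched 45 of the 59 genes by symbol, with 56 windows. The SOX core was present in 28.6% of these 56 and in 16.5% of all 32851 windows, the RBPJ core in 25.0% and 21.6%, and the Smad core in 23.2% and 9.59%. The median share of G and C was 66.2% in the 56 windows and 52.4% in all. A match is a description of letters and does not show that a factor binds there.

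The 8 genes counted as BMP ligands moved in both directions: 1 rose, 1 fell and 6 did not pass. Bmp5, a ligand of the BMP5/6/7 branch (chromosome 9, 75775364 to 75900310, plus strand), had values of 21.4, 36.3 and 24.1 in controls A, B and C and 64.6, 82.0 and 76.4 in AAV-Sox11 A, B and C. The lowest AAV-Sox11 library was well above the highest control. The mean went from 27.2 ± 7.95 to 74.4 ± 8.88 (SD, n = 3), a 2.72-fold rise (1.44 ± 0.25 SE, adjusted p = 0.0346). Without AAV-Control A or C the adjusted p was 0.0678 or 0.0526. Gm26903 on the opposite strand, not analysed here, shares 1878 exon bases with it, and no label says whether reads were counted by strand.

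Bmp6, of the same branch (chromosome 13, 38345107 to 38500302, plus strand), moved the other way. Its values were 393, 362 and 400.4 in the controls and 228, 217 and 224 with AAV-Sox11, so the groups were tight and far apart. Bmp6 fell 1.72-fold (-0.78 ± 0.10 SE, adjusted p = 0.0172). Leaving out any 1 control kept the call. Txndc5 on the opposite strand shares 224 exon bases with Bmp6 and had a log2 fold change of -0.62 at a mean value of 75.8.

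Bmp7, the most abundant BMP ligand, had values of 1681, 2189 and 1989 in the controls and 1264, 1417 and 1549 with AAV-Sox11. The groups did not overlap, but the difference of -0.47 ± 0.12 did not pass (adjusted p = 0.0802). With the same-day letter as a block it passed at 0.0443. Gdf3, a ligand best known from early embryos, had values of 19.4, 85.3 and 32.8 in the controls and 85.5, 120.5 and 90.5 with AAV-Sox11. The lowest AAV-Sox11 library was level with control B, just above it. Its difference of 1.34 ± 0.48 did not pass (adjusted p = 0.15), and it was 0.87 without control A (adjusted p = 0.268) and 1.91 without control B (adjusted p = 0.03). Bmp3, Bmp8b, Gdf6 and Gdf9 had overlapping groups.

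The receptors and antagonists of the BMP pathway held no called gene. Bmpr2, the type II receptor and the most abundant of the 4 receptors, had values of 7869, 8826 and 7083 in the controls and 9122, 9673 and 8730 with AAV-Sox11, a difference of 0.22 ± 0.10 (adjusted p = 0.228). Its groups overlapped through control B and AAV-Sox11 C. Bmpr1b, a type I receptor, had 267, 139 and 174 in the controls and 122, 117 and 129 with AAV-Sox11. That is a difference of -0.60 ± 0.23 (adjusted p = 0.173) between groups that did not overlap, with control A highest, and of -0.34 without control A. Among the antagonists, Chrd, which codes for chordin, had 106, 66.7 and 87.8 against 61.5, 53.0 and 54.3, with no overlap and a difference of -0.59 ± 0.21 (adjusted p = 0.143). Its only row is a retained-intron transcript, and a coding chordin transcript was not analysed here.

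Of the 3 Smads that carry the BMP signal, Smad9 fell and the others did not pass. Smad9 (chromosome 3, 54755582 to 54801257, plus strand) had values of 944, 1063 and 1168 in the controls and 727, 719 and 769 with AAV-Sox11. All 3 AAV-Sox11 libraries were below the lowest control, and the mean fell from 1058 ± 112 to 738 ± 27.2. The fall was 1.43-fold (-0.51 ± 0.10 SE, adjusted p = 0.0481), and it did not pass without control A, B or C (adjusted p = 0.0515, 0.0616 and 0.0642). Smad1 and Smad5 stayed within their replicate spread, at 0.05 ± 0.12 and -0.01 ± 0.09. The difference between Smad9 and its relatives was not tested. Smad6, an inhibitor of BMP signalling, had the most negative value of the 59 genes, -1.35 ± 0.52, but it was low and its groups overlapped. Its values were 35.9, 27.5 and 14.5 in the controls and 4.19, 9.35 and 17.1 with AAV-Sox11 (adjusted p = 0.167), and the difference was -0.89 without AAV-Sox11 A and -2.66 with the sex index. Smurf1, the other inhibitor counted here and the more abundant one, had 56.3, 53.0 and 72.4 against 48.0, 50.9 and 69.4 (-0.11 ± 0.22, adjusted p = 0.781).

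**Figure D2:**
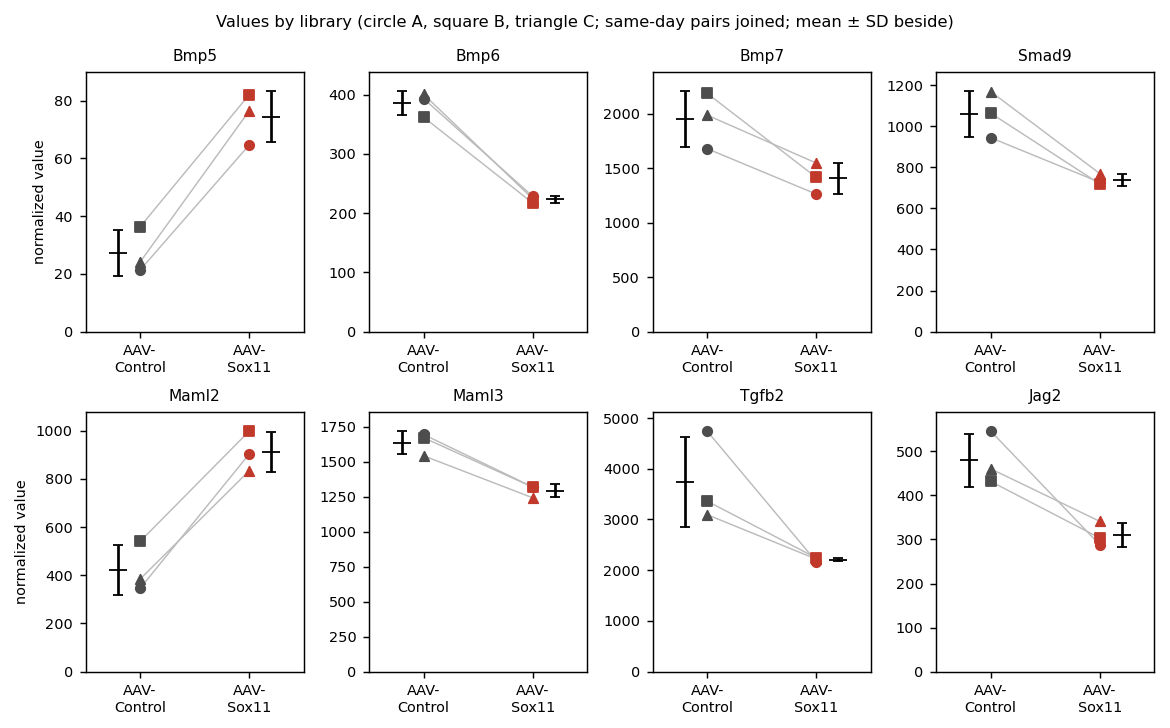
Normalized values of 8 genes in each library (y axis, linear from 0), with same-day pairs joined by grey lines and the mean ± SD of 3 libraries beside each group. In all 8 panels the groups do not overlap; Bmp5 and Maml2 are higher with AAV-Sox11 and the other 6 lower.

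None of the 18 TGF-beta and activin genes passed, while 4 (22.2%, against 24.3% of all genes) did so at an unadjusted p under 0.05. The 7 genes counted as ligands, among them the inhibin subunit Inha, all had negative differences, with a median of -0.49 and a range from -0.79 to -0.01. Without AAV-Control A 5 of 7 were negative, as without AAV-Sox11 C, and 6 of 7 with the sex index as a covariate. Tgfb2, the main TGF-beta of the neural retina and the most abundant ligand, had values of 4742, 3362 and 3095 in the controls and 2170, 2242 and 2219 with AAV-Sox11. The AAV-Sox11 libraries lay within a narrow band below every control. The difference was -0.73 ± 0.15 (1.66-fold lower) with an adjusted p of 0.0545, and of 0.0443 with the same-day block. Without control A, in which it was highest, Tgfb2 passed at 0.0475 with a smaller difference of -0.55, and without control C at 0.037 with -0.85.

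Tgfb1, the ligand typical of immune and vascular cells, had values of 135.0, 99.0 and 142 in the controls and 92.8, 66.5 and 58.3 with AAV-Sox11. Those groups did not overlap, and the difference of -0.79 ± 0.23 did not pass (adjusted p = 0.0978), and it was -0.35 with the sex index. Microglia, a cell type that makes it, had 4 of 7 markers measured, whose summed values were 2664, 1537 and 4293 in the controls and 2184, 1602 and 2258 with AAV-Sox11. Their part in the Tgfb1 values was not tested. Inha, the inhibin alpha subunit, had 333, 202 and 284 against 186, 176 and 209, with overlap through control B (-0.49 ± 0.19, adjusted p = 0.175). Inhba, Inhbb, Tgfb3 and Gdf11 did not pass, at -0.43, -0.65, -0.03 and -0.01.

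None of the 6 receptors and 3 Smads of this branch passed. Tgfbr1, the type I receptor of TGF-beta, had values of 3665, 3083 and 5805 in the controls and 4005, 3268 and 3949 with AAV-Sox11 (-0.12 ± 0.22, adjusted p = 0.781). Control C alone was far above the rest. Smad3, the more abundant of the signal-carrying Smads, had 1142, 679 and 838 in the controls against 1050, 852 and 747, a difference of 0.01 ± 0.20 (adjusted p = 0.975). Its groups overlapped over most of their range. Smurf2, a ubiquitin ligase that marks receptors for removal, had 2008, 1870 and 1815 against 2057, 2204 and 2289, higher in every AAV-Sox11 library by 0.20 ± 0.08 (adjusted p = 0.176). With the sex index the difference was 0.09. Smad4, the shared partner, also had groups that did not overlap, at 0.20 ± 0.10 (adjusted p = 0.281).

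Among the 17 Notch genes 1 rose and none fell. Maml2, a Mastermind-like coactivator (chromosome 9, 13297957 to 13709388, plus strand), had values of 346, 540.3 and 384 in controls A, B and C and 903, 998 and 834 in AAV-Sox11 A, B and C. Every AAV-Sox11 library was above every control, and the mean rose from 423 ± 103 to 912 ± 82.5. The rise was 2.19-fold (1.13 ± 0.17 SE, adjusted p = 0.0253), and the adjusted p was 0.06 without control A. The other Mastermind-like genes had negative differences that did not pass. Maml3, the most abundant of the 4 nuclear genes, had 1693, 1670 and 1541 in the controls and 1318, 1317 and 1241 with AAV-Sox11 (-0.34 ± 0.08, adjusted p = 0.0628). Its groups were narrow and apart. Mamld1, a related gene, had 276, 319.7 and 281 against 173, 205 and 232 (-0.53, adjusted p = 0.0838), and Maml1 had a difference of -0.09 ± 0.25.

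The other 16 Notch genes did not pass. Of all 17, 13 had negative differences, and the median was -0.30 (-0.08 without AAV-Control A and -0.14 without AAV-Sox11 C). Jag2, a Jagged ligand, came nearest, with 546, 432 and 460 in the controls and 288, 303 and 341 with AAV-Sox11. The groups did not overlap, and the difference of -0.62 ± 0.12 had an adjusted p of 0.0527. Without control B it passed at 0.044. Dll1, a Delta ligand, was the 1 ligand with a positive difference. Its values were 35.9, 34.3 and 34.7 in the controls and 51.1, 50.9 and 49.3 with AAV-Sox11 (0.52 ± 0.17, adjusted p = 0.13). The replicates were very close, but A930024N18Rik on the opposite strand shares 624 exon bases with it and had 0.37. Dll3, a ligand that acts within the cell that makes it, was low, at 9.70, 17.6 and 11.6 against 8.34, 8.31 and 6.03 (-0.68, adjusted p = 0.233, and -0.45 without control B).

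The 4 Notch receptors all had negative differences, none of which passed. Notch2, the most abundant, had 1846, 1303 and 1793 in the controls and 1836, 1443 and 1321 with AAV-Sox11 (-0.10 ± 0.17, adjusted p = 0.748). Notch1 had 1351, 665 and 693 against 683, 587 and 503 (-0.54, adjusted p = 0.266), and Notch3, a receptor of pericytes, 766, 216 and 231 against 376, 338 and 292 (-0.01). Control A stood out in both, 1.95-fold above the next control for Notch1 and 3.32-fold for Notch3. Rgs5, a pericyte marker, had 15450, 3265 and 2898 in the same controls and 5922, 6137 and 5457 with AAV-Sox11. Without control A, 3 of the 4 receptors had negative differences, with the sex index 3, and without AAV-Sox11 C 2. Of the fringes, glycosyltransferases that tune Notch to its ligands, Lfng had 55.3, 58.8 and 55.0 against 54.2, 28.0 and 13.1 (-1.02 ± 0.45, adjusted p = 0.218). Its AAV-Sox11 libraries were spread over a wide range up to the edge of the controls, and the difference was -0.52 without AAV-Sox11 C and -0.26 with the sex index. Mfng had 107, 56.9 and 56.9 against 39.6, 46.7 and 56.3 (-0.57, adjusted p = 0.274), and the difference was -0.27 without control A and -1.0 with the sex index. Numbl, the more abundant of the 2 Numb-type inhibitors, had 655, 489 and 680 against 581, 514 and 549 (-0.14, adjusted p = 0.577).

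**Figure D3:**
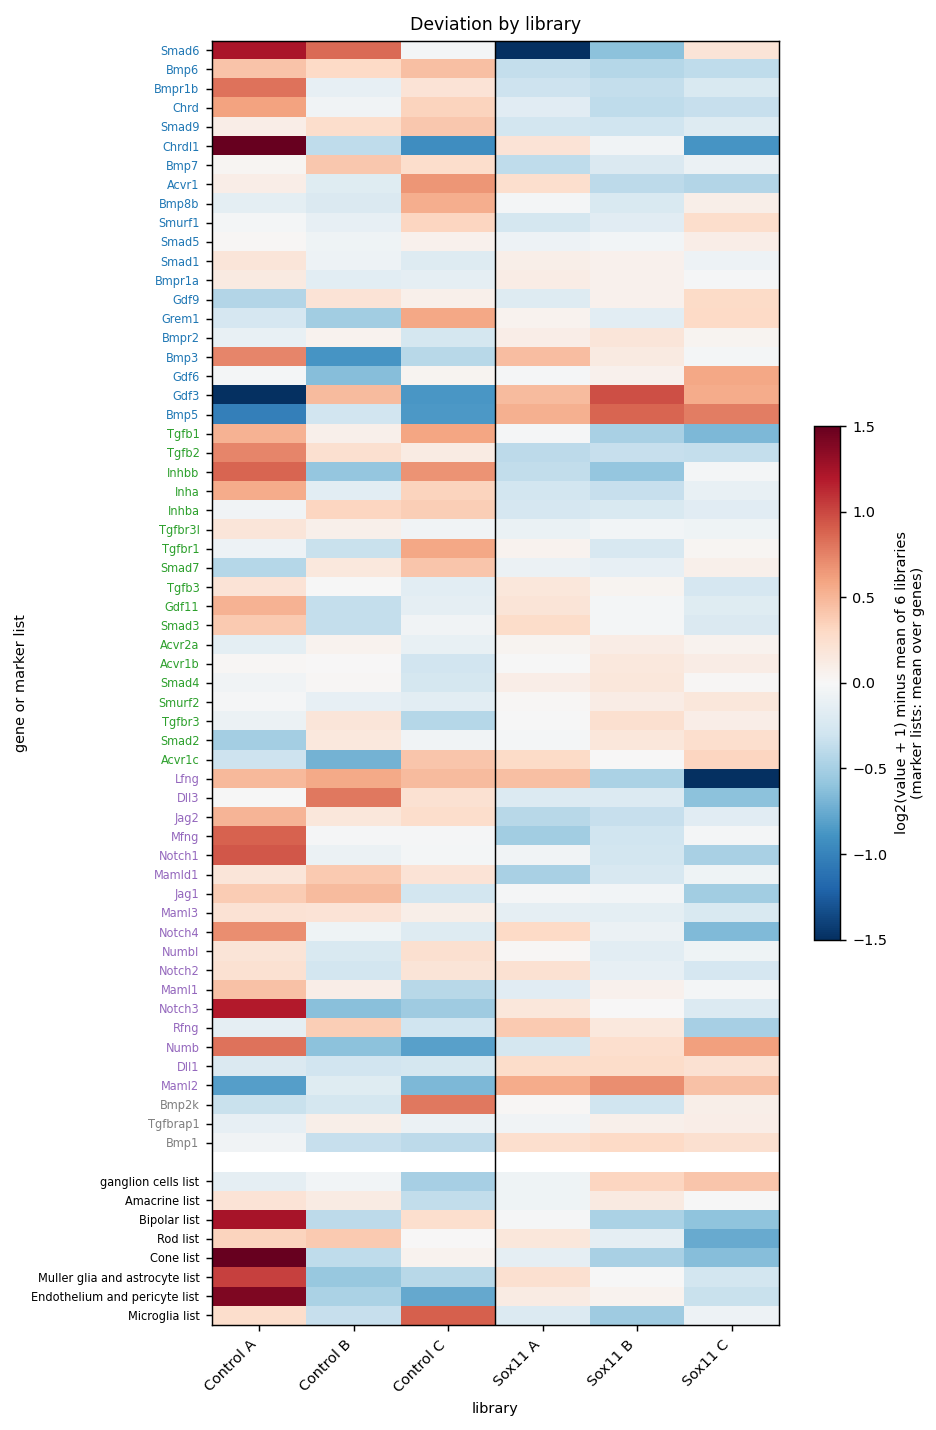
Log2(value + 1) of 58 of the 59 genes in each library minus the gene's mean over the 6 libraries (colours, capped at ±1.5), with the mean over the genes of 8 cell type marker lists below. AAV-Control A is raised in the Muller glia (1.03), endothelium and pericyte (1.40) and cone (1.58) lists and in Notch1, Notch3 and Chrdl1.

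Control A had the highest control value in 27 of the 59 genes, B in 17 and C in 15. By 1.5-fold or more over the next control, the counts were 9, 3 and 5. The 9 genes of control A were Bmp3, Bmpr1b, Chrdl1, Gdf11, Mfng, Notch1, Notch3, Notch4 and Numb. The mean deviation over the 17 Notch genes was 0.352, 0.041 and -0.107 in the controls and 0.008, -0.054 and -0.239 with AAV-Sox11, so the groups overlapped. Over the BMP genes these means ran from -0.044 to 0.132 in the controls and from -0.082 to 0.026 with AAV-Sox11, and over the TGF-beta and activin genes from -0.074 to 0.129 and from -0.081 to -0.022. Without control A, 1 of the 59 genes rose and 2 fell, beside 0.893% of all genes that passed.

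Of the 3 genes named for a family, Bmp1, a metalloprotease that cleaves chordin and procollagen, had values of 354, 288 and 279 in the controls and 438, 451 and 435 with AAV-Sox11. The groups did not overlap, and the difference was 0.53 ± 0.12 (adjusted p = 0.0597). Without control A it was 0.64 with an adjusted p of 0.0475. Tgfbrap1, the most abundant of them, had 1706, 1970 and 1743 against 1780, 1955 and 1988 (0.08 ± 0.09, adjusted p = 0.611).

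Levels of different genes were compared per kilobase of transcript, as the mean of both groups. Tgfbr1 was highest at 980.0, followed by Bmpr2 at 663, Tgfb2 at 581, Acvr1b at 501 and Smurf2 at 488. Bmp7 came next at 466, and no Notch gene was among the 10 highest. Each level sums the rows of a gene, each divided by its own length, so short rows raise it. Tgfbr1 includes a row of 372 bases and Smurf2 rows of 596 and 875 bases, so their places in the order are uncertain. The Notch gene with the highest level was Maml3 at 178, then Notch2 at 152. Bmp5 was low on this scale in both groups, at 7.13 in the controls and 19.5 with AAV-Sox11, against 107 and 62.1 for Bmp6. Maml2 stood at 71.9 in the controls and 149 with AAV-Sox11. At the bottom were the levels of Acvr1c (1.53), Dll3 (3.92) and Notch4 (4.39).

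**Figure D4:**
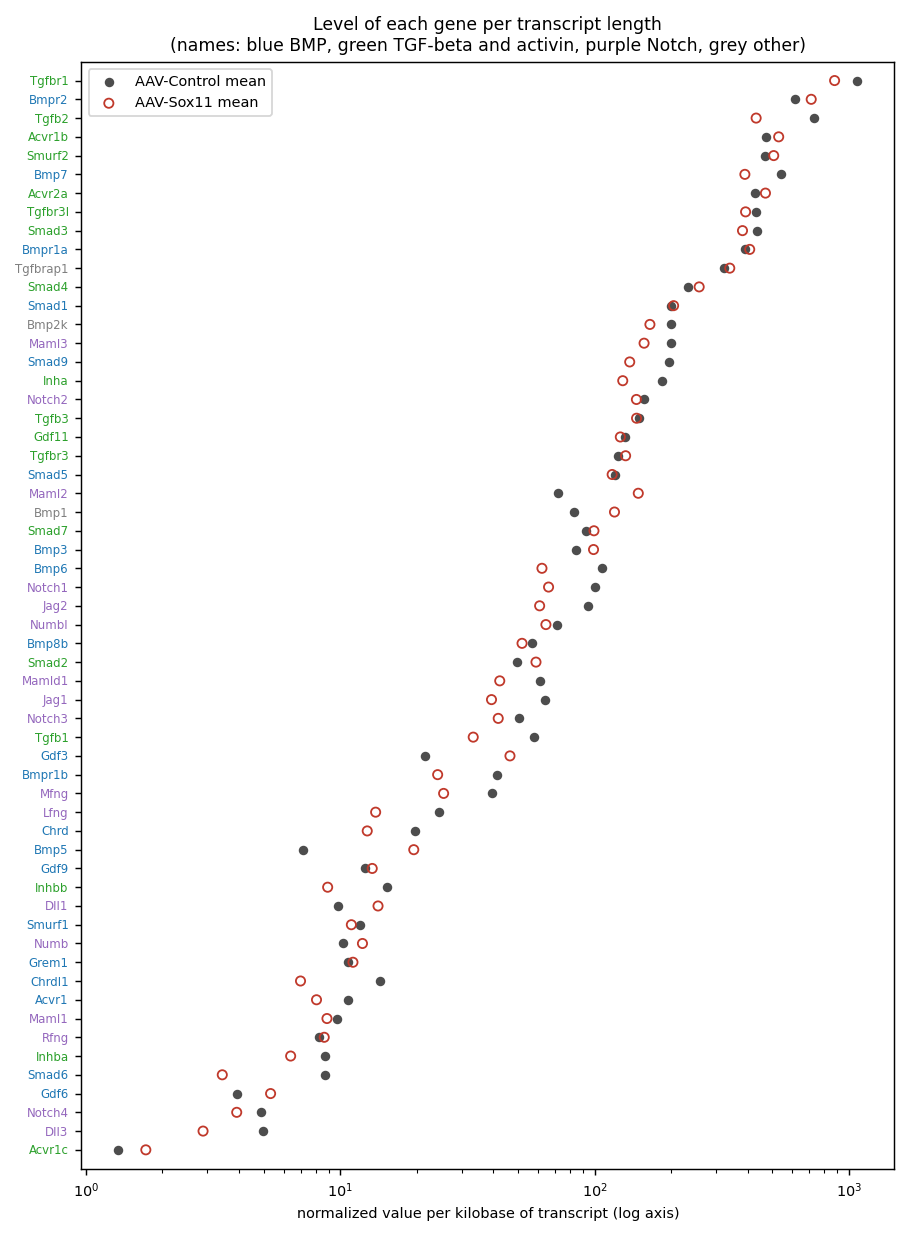
Mean level of 58 of the 59 genes per kilobase of transcript (x axis, log scale) in AAV-Control (filled) and AAV-Sox11 (open), ordered by the mean of both. Tgfbr1 (980.0) is at the top and Acvr1c (1.53) at the bottom; Bmp5, Gdf3 and Maml2 have open points far to the right of the filled ones.

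Transcript rows were also tested apart. Of the 59 genes, 40 rest on 1 row and 19 on 2 or more, and 4 (Acvr1, Chrd, Numbl and Rfng) have no protein-coding row. At an adjusted p under 0.05 over all rows, 2 of the 87 rows rose and 2 fell, beside 0.513% of all rows higher and 1.46% lower (1.97% in all). With the same-day block 2 rose and 5 fell, counts for which no share over all rows is at hand, so they cannot be judged against it. In the gene fit the block raised the share of all genes that passed from 2.32% to 4.77%. Without control A or any 1 of the AAV-Sox11 libraries 0 of the 87 rows passed, again with no share over all rows at hand. In the gene fits 0.893% of all genes passed without control A, and 0% without AAV-Sox11 A, B or C. Maml2's abundant row, ENSMUST00000159294, rose by 1.17 ± 0.18 (adjusted p = 0.0271), and its minor row, ENSMUST00000177755, was at 0.06 ± 0.34 with values near 20. The Bmp5 row also passed, and so did the Bmp6 row downward (adjusted p = 0.0246), while the single row of Smad9 was at 0.0527. A nonsense-mediated-decay row of Bmpr1b, ENSMUST00000131273, fell: its values were 18.4, 10.8 and 22.2 in the controls and 5.21, 3.12 and 4.02 with AAV-Sox11. Its difference was -1.79 ± 0.35 (adjusted p = 0.0449), whereas the coding row of Bmpr1b was at -0.51 ± 0.23 (adjusted p = 0.249). No label says how reads were shared among overlapping transcripts, so the split between rows is uncertain. The authors' deposited table had a false discovery rate under 0.05 for 11 of the 87 rows (12.6%, beside 6.83% of all rows), 2 higher and 9 lower, beside 1.93% and 4.91% of all rows. In the authors' deposited table these were Bmp5 and Maml2 upward and rows of Bmp6, Bmp7, Bmpr1b, Jag1, Jag2, Maml3, Smad9, Tgfb1 and Tgfb2 downward. The sign was the same as in limma for 86 of 87 rows.

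**Figure D5:**
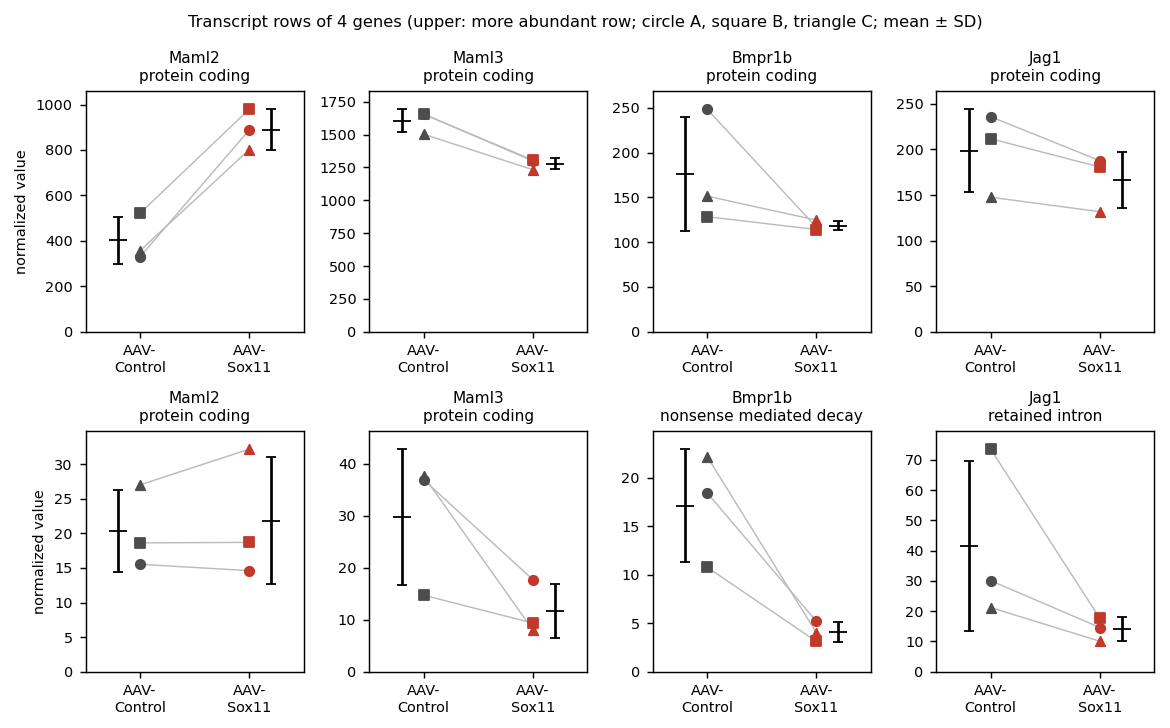
Normalized values of both transcript rows of Maml2, Maml3, Bmpr1b and Jag1 in each library (y axis, linear from 0; the more abundant row above), with the mean ± SD of 3 libraries. The Maml2 difference lies in the abundant row, and the nonsense-mediated-decay row of Bmpr1b is at 18.4, 10.8 and 22.2 in the controls against 5.21, 3.12 and 4.02.

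Genes around the pathways were read from fixed lists. Of 26 measured ligand traps and modulators of BMP and TGF-beta signalling (40 listed), 1 rose and none fell, with a median of 0.02. That is 3.85% of the list, beside 2.32% of all genes. At an unadjusted p under 0.05, 5 were higher and 4 lower (34.6%, against 24.3% of all genes). The gene that rose at an adjusted p under 0.05 was Crim1, a transmembrane protein that binds BMPs. Its values were 1192, 1125 and 976 in the controls and 1608, 1665 and 1509 with AAV-Sox11. Crim1 rose 1.46-fold without overlap of the groups (0.54 ± 0.10 SE, adjusted p = 0.0405, and 0.0581 without control A). None of 7 BMP target genes, 12 TGF-beta target genes, 36 Notch ligand-like, processing and modulator genes or 10 Notch target genes passed, with medians of 0.16, 0.10, 0.06 and -0.09. At an unadjusted p under 0.05 the counts were 3, 3, 7 and 0, or 42.9%, 25.0%, 19.4% and 0% of the lists, against 24.3% of all genes. Id4, an inhibitor of basic helix-loop-helix factors and a BMP target, had 348, 666 and 536 in the controls and 704, 874 and 956 with AAV-Sox11 (0.75 ± 0.24, adjusted p = 0.117). The adjusted p was 0.0428 with the same-day block and 0.0613 with the block and the removed direction together, and without control A the difference was 0.49 (adjusted p = 0.165). Id2 and Hey1 had differences of 0.32 and 0.16 and overlapping groups, with ranges of -0.11 to 0.78 and -0.18 to 0.25 over the alternatives, and Id1, Id3, Hes1 and Hes5 were not analysed here. The Notch target list shares Sox9, Gfap, Glul and Slc1a3 among its measured genes with the Muller glia list, and its mean deviation was 0.93 in control A against -0.41 in control B and -0.23 in control C.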

How the data were processed

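RNA-seq of 6 libraries was taken as the authors deposited it, in 1 table of Ensembl transcript rows. Per the submitters' processing notes, CASAVA 1.8.2 and edgeR (version not listed) were used with the mouse build mm10. No label or header names the aligner, the read counter, its strand handling or the annotation release. Per the file headers, the table holds a whole-number column and a normalized column per library beside the authors' comparison. The normalized columns, a signal the authors deposited, equal the whole numbers times 1 factor per library. The whole numbers, per the file headers without a unit, were treated as a score and not as counts. The reason is that 1 direction across the libraries held no spread (SD 9.48e-05 natural log units over rows of mean value above 2000, against 0.098 in the next direction). AAV-Sox11 B carried 57.7% of its squared weight, and its cosine with the group contrast was -0.019. The deposited values thus lacked spread in this direction, here called the removed direction, and no header or label records a step that took it out. Part of the replicate spread is missing, so the p-values may be too small. The authors' log2 fold changes and p-values (with their false discovery rate) are deposited beside these and are named as theirs.

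Normalized values were summed per gene name; 357 rows without a name (0.422% to 0.517% of the library totals) were left out. All 15450 genes were fitted with limma-trend (limma 3.58.1, R 4.3.3) on log2(value + 1), without a covariate. Benjamini-Hochberg adjustment was over all genes, at 0.05. Transcript rows were fitted likewise. The gene fit was also run on simulated data with independent noise in each library. Those data have no missing direction and no same-day correlation, so they cannot show whether the p-values here are too small. Per-kilobase levels used transcript lengths from GENCODE M21 (GRCm38, the same build as mm10), which held 26103 of the 26691 rows. P-values rest on the spread between pools of 3 animals. The letters pair the libraries, since the series description gives a shared day; same-letter deviations correlated at 0.0025 (A), 0.79 (B) and 0.24 (C). Blocked values stand beside results they change.

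The genes, their roles and the lists were chosen with earlier results of these data known. Genes given in full were those at an unadjusted or adjusted p under 0.05, those whose groups did not overlap with a log2 difference of at least 0.5, and the most abundant gene of each role. For other pathway genes, those passing were named, with Id1 to Id4, Hes1, Hes5 and Hey1. Some items these rules name are not reported here; counts and medians cover all 59 genes, and figures draw 58. Alternatives covered the pseudocount, filter, scaling, pairing, removed direction, sex index, variance moderation, transcript rows and each library left out in turn.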

Additional observations from a re-analysis of the deposited data

How the results depend on the processing

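Among the 59 genes, the count that fell (2) was 5 with scaling by library total and 4 with upper-quartile scaling. It was 4 with the replicate block (4.77% of all genes then passed, 323 higher and 414 lower). It was 1 with the most abundant transcript row per gene (1.97% of all genes then passed). With the removed direction as a covariate 0 rose and 0 fell, as with the sex index. With the removed direction and the replicate block together 1 rose and 0 fell, beside 0.854% of all genes that passed. Leaving out 1 library in turn, the count that rose ranged from 0 to 3 and the count that fell from 0 to 3. Over all genes 0 passed in limma with the removed direction, the sex index, or without AAV-Sox11 A, B or C (2582, 2702, 3120, 1942 and 2953 at an unadjusted p under 0.05). Without AAV-Control A, B or C, 51, 339 and 185 genes rose and 87, 406 and 210 fell, so each control moved at least 1 of these counts by over 1.5 times. The BMP median (-0.11) was -0.02 with the sex index and -0.20 to 0.02 without 1 library, the TGF-beta and activin median (-0.02) -0.12 to 0.08 and the Notch median (-0.30) -0.38 to -0.08.

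The median of all genes was 0.032 as deposited, -0.032 with scaling by library total (103 higher, 356 lower) and -0.016 with the upper quartile (100 higher, 355 lower), against 123 higher and 235 lower. For 26 named genes under up to 19 alternatives each, 434 of 492 values kept their side of the threshold, 37 no longer passed and 21 newly passed. The alternative without a filter repeats the main fit, since the lowest gene mean was 7.2 and the minimum was 1. It could not differ, yet it is counted in the 434 and in the passes out of 19. Of the 434, 2 changed sign, Id2 without AAV-Control B (-0.11) and Hey1 with the sex index (-0.18), neither of which passed. The adjusted p ranged from 0.0147 to 0.151 for Bmp6 (13 of 19 passed), 0.0209 to 0.173 for Maml2 (13), 0.0229 to 0.214 for Bmp5 (11) and 0.0385 to 0.264 for Smad9 (9). The replicate block changed the call of Tgfb2, Bmp7 and Id4 and of no other gene given in full. Dll3 and Smad6 gave no value at a minimum mean of 20. The cause of these changes was not tested.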
